A study of Mus with 12 samples.

Results

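The genes described here are Hand2, the noncoding transcript Hand2os1 that lies beside it, and 8 genes of fibroblast growth factor (FGF) signaling in the pregnant mouse uterus. The FGF genes are the ligands Fgf1, Fgf2, Fgf7, Fgf9, Fgf10 and Fgf18 and the receptors Fgfr1 and Fgfr2. A row of the gene tables was taken when its gene name holds 1 of these 10 symbols and when it holds an Ensembl transcript, without regard to its values. All 10 genes were found in the table of the implantation stage, in 10 of its 87235 rows. In the table of the labor stage, 9 genes were found by name in 10 of its 40787 rows. Hand2os1 is not named there, but a row named AV026068 and Gm17994 holds 36 Ensembl transcripts, all of which belong to the Hand2os1 row of the implantation stage, and this row was used in its place.

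RNA was sequenced from the whole uterus of 12 pregnant ICR mice, an outbred strain, with 3 mice on each of 4 days after mating and 1 library per mouse. The mice were mated at the same age, and no treatment or genetic change is named for any of them. E0.5 and E4.5 form the implantation stage, before and at the time when the embryo attaches to the uterine wall, and E15.5 and E18.5 form the labor stage, late pregnancy and the eve of birth. Serum progesterone differs between the days of each stage, which was the reason for the comparison of E0.5 with E4.5 and of E18.5 with E15.5. The values are FPKM, fragments scaled to transcript length and sequencing depth, and the implantation stage also has read counts. The tables of the stages were assembled and normalised separately, so levels were compared only within a stage.

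Hand2 is a basic helix-loop-helix transcription factor of the uterine stroma, the connective tissue under the epithelium, and it is induced there by progesterone through the progesterone receptor. In the receptive uterus it is known to lower the production of FGF ligands by stromal cells. These ligands act on FGF receptors of the overlying epithelium, where they drive ERK signaling and cell division. Fgf9 is known as a ligand made by the uterine epithelium that acts on the stroma. Hand2os1, also called upperhand, is transcribed away from Hand2 on the opposite strand and is known from the heart.

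Before the results, 1 library of the implantation stage has to be described. E4.5 replicate 3 had rank correlations (Spearman's rho over 15947 genes) of 0.725 and 0.711 with the other E4.5 libraries, against 0.885 to 0.910 for the other pairs of libraries from the same day. The 8 listed markers of ovary and oviduct, which include the steroid enzymes and receptors of the ovary, summed to 899 FPKM in this library and to 9.04 to 21.1 FPKM in the other 5 libraries of the stage. Its sum over 10 stromal markers was 260 FPKM against 415 to 751 FPKM in the other 5, its sum over 8 smooth muscle markers was 209 against 808 to 1235 FPKM, and its sum over 9 epithelial markers was 98.0 against 169 to 339 FPKM. None of the stromal, epithelial and smooth muscle markers was at 0 in all 6 libraries, and of 10 trophoblast markers 7 were. The part of these differences in the results was not tested, and fold changes of the 10 genes at the implantation stage are given with and without this library. Marker sums of 5 lists did not overlap between the days of this stage. Epithelial markers summed to 273 to 339 FPKM at E0.5 against 169, 231 and 98.0 at E4.5, stromal markers to 513 to 751 against 448, 415 and 260, and 6 endothelial markers to 20.7 to 23.9 against 56.5, 40.7 and 30.1. The sum over 8 decidual markers was 28.3 to 43.1 FPKM at E0.5 against 17.3, 16.0 and 20.4 at E4.5, and that over 7 leukocyte markers was 63.6 to 68.9 against 50.9, 38.5 and 37.4. Alpl (means of 13.5 FPKM at E0.5 and 1.33 at E4.5) and Htra3 (13.7 and 4.44) carried the decidual sum. Of 6 tested decidual markers 4 had positive log2 fold changes. Bmp2 was lower at E0.5 (0.528 and 5.71 FPKM, edgeR adjusted p = 0.0187), as was Prl8a2, which was read only in E4.5 replicate 1. The part of these lists in the changes between the days was not tested. At the labor stage, E15.5 replicate 1 had rank correlations of 0.902 and 0.872 with the other E15.5 libraries, against 0.946 to 0.956 for the other pairs from the same day. It also stood apart in 3 of 8 decidual markers, Prl8a2 with 1342 FPKM against 40.2 to 86.0 in the other 5 libraries, Erv3 with 182.7 against 21.8 to 39.1 and Prl3c1 with 0.440 against at most 0.0847, while Htra3, Cryab and Alpl were lowest in it. Without this library 0 of the 10 genes passed the adjusted p of limma or the study's criterion, as with all libraries. Total counts of the implantation stage ranged from 58020989 to 70906881 per library.

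**Figure D1:**
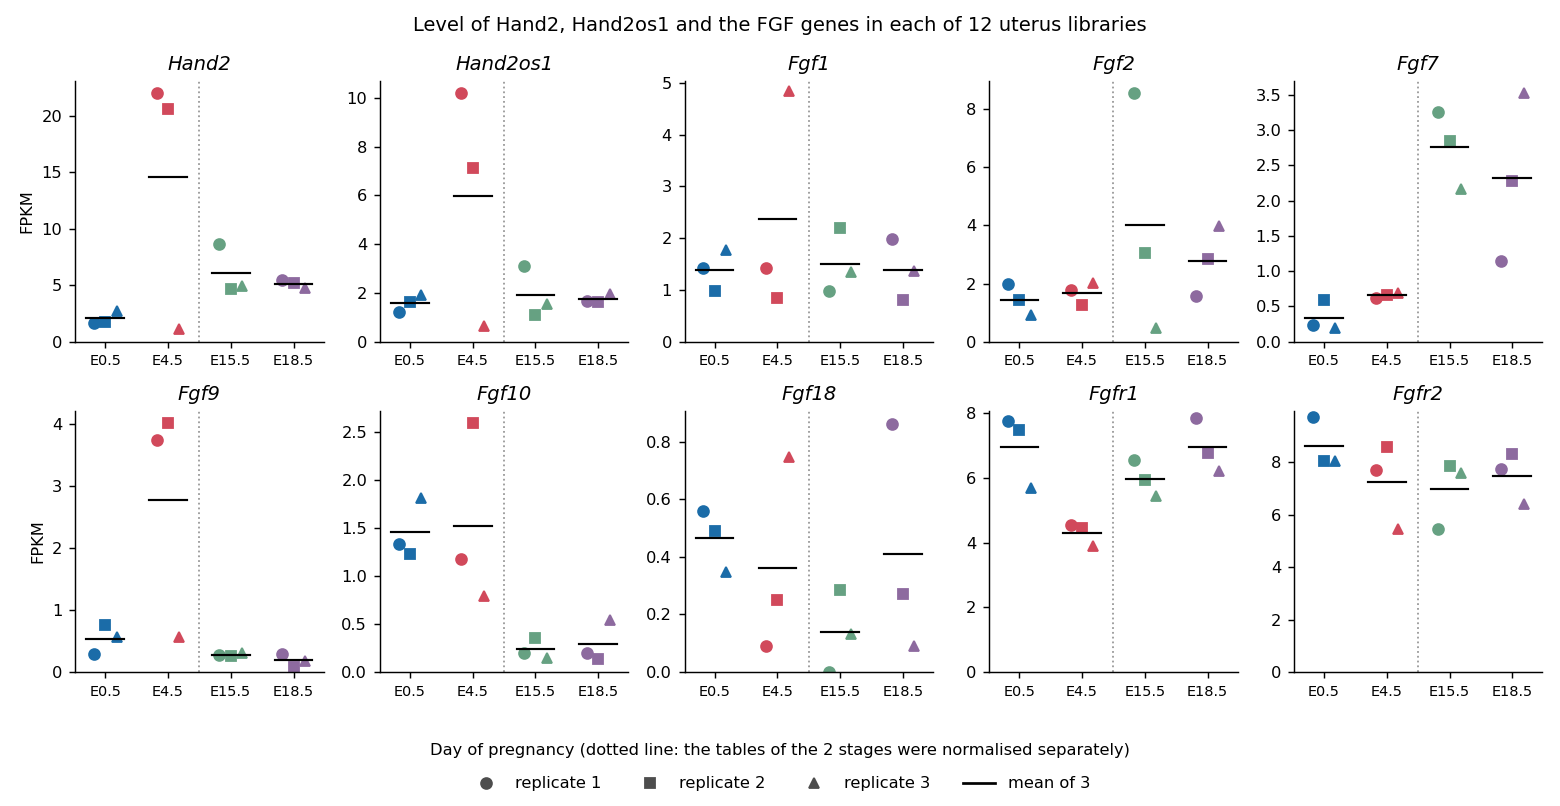
FPKM (y axis, linear, a separate scale in each panel) of the 10 genes in each of 12 libraries, by day of pregnancy (x axis), with 1 marker shape per replicate and a bar at the mean of 3. In the panels of Hand2, Hand2os1 and Fgf9, E4.5 replicates 1 and 2 lie far above all E0.5 libraries while E4.5 replicate 3 lies among or below them, and in the panels of the labor stage the days overlap. The dotted line parts the tables that were normalised separately. The Fgf2 and Fgfr2 panels plot rows that also hold other genes, and the Hand2os1 panel plots for the labor stage the row matched by its transcripts.

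Hand2 was the member with the widest range at the implantation stage. Its row lies on the plus strand of chromosome 8, at chr8:57320983-57324633 in the mouse build GRCm38, and holds a single protein-coding transcript. It had 1.67, 1.78 and 2.75 FPKM in the 3 E0.5 libraries against 22.0, 20.6 and 1.13 in the 3 at E4.5. Thus 2 E4.5 libraries were far above E0.5, and the third was below every E0.5 library. The counts behind these values were 335, 310 and 563 reads at E0.5 and 4402, 3953 and 215 reads at E4.5. The log2 fold change, E0.5 minus E4.5, was -2.83 with a standard error (SE) of 0.97, and it did not pass edgeR's quasi-likelihood test (adjusted p = 0.212, Benjamini-Hochberg, unadjusted p = 0.0227). Without E4.5 replicate 3, Hand2 was lower at E0.5 by a log2 fold change of -3.38 (SE 0.27), which passed the same test with an adjusted p of 0.00188. DESeq2 called Hand2 with all 6 libraries (log2 fold change -2.82, adjusted p = 0.0111).

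Because Hand2 belongs to stromal cells, its level was also set against the summed stromal markers of the same library. Per 1000 FPKM of stromal markers, Hand2 had 3.25, 2.56 and 3.66 FPKM at E0.5 against 49.2, 49.7 and 4.33 at E4.5. On this scale E4.5 replicate 3 was close to the E0.5 libraries. The stromal markers did not move together in that library, with Lum at 42.3 FPKM against 18.0 and 17.2 in the other E4.5 libraries and Thy1 at 2.95 against 23.0 and 14.9, and whether their sum stands for uterine stroma there was not tested. In whole tissue, fewer cells of a type and less RNA per cell cannot be told apart. At the labor stage the same ratio was 4.20, 1.95 and 1.81 FPKM at E15.5 against 2.47, 2.31 and 1.81 at E18.5.

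Hand2os1 had the same order of libraries as Hand2 at E4.5. Its row also holds the pseudogene Gm17994 and lies on the minus strand at chr8:57281117-57324233, so that it spans nearly all of the Hand2 row, whereas the RefSeq gene Hand2os1 ends at 57320859, before Hand2 begins. Whether reads were assigned by strand is not given in the sources used here, and reads of the overlap cannot be told apart. Hand2os1 had 1.23, 1.62 and 1.9 FPKM at E0.5 against 10.2, 7.11 and 0.655 at E4.5. Again 2 E4.5 libraries were above and 1 was below all E0.5 libraries. For Hand2os1 the log2 fold change was -1.93 (SE 0.85, edgeR adjusted p = 0.313), and without E4.5 replicate 3 it was -2.46 (SE 0.26, edgeR adjusted p = 0.00467).

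The ratio of Hand2os1 to Hand2, in FPKM, was 0.735, 0.911 and 0.691 at E0.5 and 0.463, 0.345 and 0.581 at E4.5. The days did not overlap in this ratio, which sets against each other 2 rows that share the span of Hand2. On the log2 scale the ratio was higher at E0.5 by 0.77, with p = 0.1 in an exact two-sided permutation test, which cannot go lower with 3 against 3 libraries and so cannot pass a threshold of 0.05. At the labor stage the ratio was 0.358, 0.232 and 0.312 at E15.5 and 0.306, 0.311 and 0.418 at E18.5, and the days overlapped.

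Of the 9 tested rows within 60 kb of Hand2, which include Hand2 itself and the overlapping Hand2os1 row, 9 had a negative log2 fold change, between -2.83 and -1.53. None passed the adjusted p of edgeR with all libraries (0 of 9, as 1.22% of all tested rows did), and 6 did without E4.5 replicate 3 (as 6.19% of all tested rows did), when the log2 fold changes lay between -3.38 and -2.07. E4.5 replicate 3 was below both other E4.5 libraries in 8 of the 9 rows. The exception was an unannotated row that was at 0 in E4.5 replicate 1, where Hand2 was highest, and at 2.22 FPKM in E4.5 replicate 2. The long noncoding RNA Gm34030, whose row starts 10709 bases above the start of Hand2 on the opposite strand, had 0.399, 0.207 and 0.393 FPKM at E0.5 against 2.52, 3.82 and 0.457 at E4.5. Its days did not overlap, although E4.5 replicate 3 was only just above E0.5. The log2 fold change of Gm34030 was -2.75 (SE 0.77, edgeR adjusted p = 0.145) with all libraries and -3.23 (adjusted p = 0.00710) without E4.5 replicate 3. The long noncoding RNA 5033428I22Rik, which starts 10970 bases above the start of Hand2 on the same strand, had 0.339, 0.746 and 0.851 FPKM at E0.5 against 3.54, 2.24 and 0.177 at E4.5. E4.5 replicate 3 was below every E0.5 library, and the fold change did not pass with all libraries (-1.64, SE 0.94, edgeR adjusted p = 0.412) but did without E4.5 replicate 3 (-2.18, adjusted p = 0.0296). Of the 5 unannotated rows of the region, 2 passed without that library. A row named Hand2os1 lies within the Hand2os1 span, and rows named Hand2 start at 57324666 and 57325740, just past the end of the Hand2 row. The last of these was among those that passed, so the 9 rows are not 9 separate genes.

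**Figure D2:**
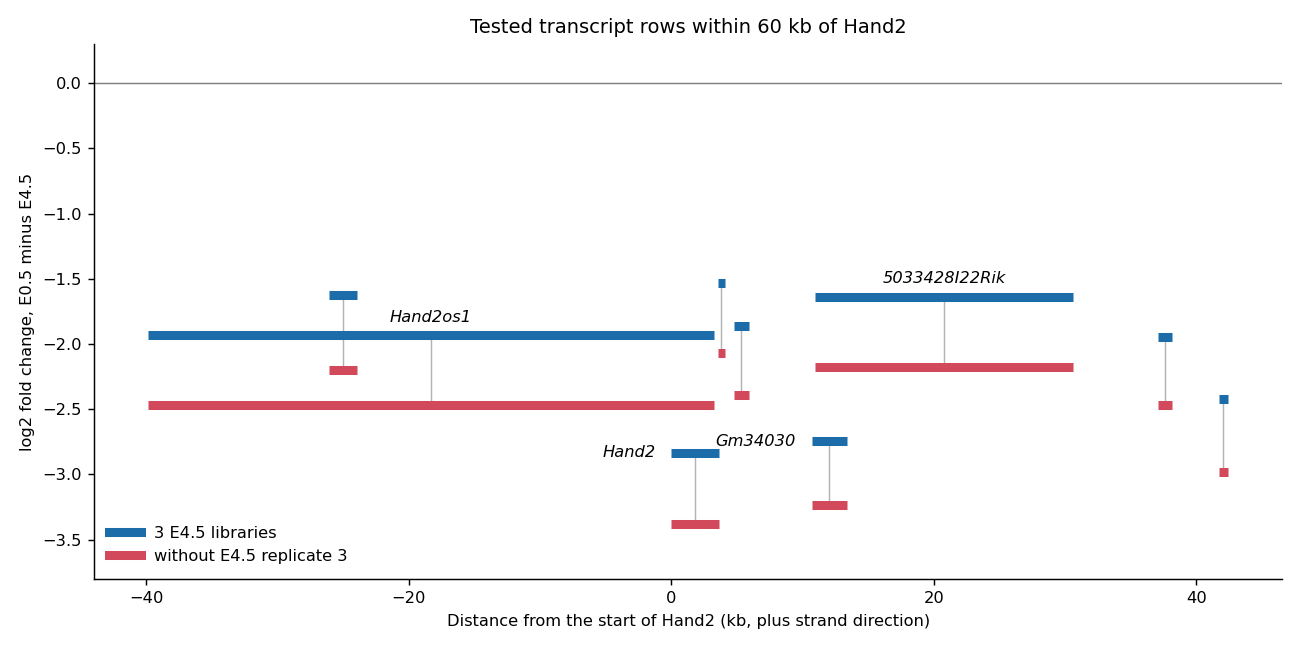
Log2 fold change, E0.5 minus E4.5 (y axis), of the 9 tested transcript rows within 60 kb of Hand2, drawn to scale at their distance from its start in kb (x axis), with rows under 0.5 kb widened to 0.5 kb so that they can be seen. Blue bars are fits with 3 E4.5 libraries and red bars fits without E4.5 replicate 3. All bars lie below 0, and unnamed bars are unannotated rows.

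The next tested genes on either side had negative but smaller log2 fold changes. Sap30, a subunit of a histone deacetylase complex that starts 161724 bases above Hand2, had 3.04, 3.01 and 3.89 FPKM at E0.5 against 4.25, 3.68 and 2.19 at E4.5, which gave a log2 difference of -0.03 (SE 0.33, edgeR adjusted p = 0.976), and of -0.28 without E4.5 replicate 3. On the other side the nearest annotated genes tested were Fbxo8, Gm2767 with Gm25992, and Cep44, at 728590, 759574 and 770111 bases, with log2 fold changes of -0.26, -0.16 and -0.58. None passed the adjusted p with or without E4.5 replicate 3.

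Among the ligands, Fgf9 had values at E4.5 like those of Hand2. It had 0.289, 0.752 and 0.562 FPKM at E0.5 against 3.74, 4.01 and 0.571 at E4.5, so that E4.5 replicate 3 lay within the range of E0.5. The counts were 115, 261 and 229 reads at E0.5 and 1481, 1524 and 216 reads at E4.5. The log2 fold change was -2.37 (SE 0.76, edgeR adjusted p = 0.186, unadjusted p = 0.0172). It was -2.86 (SE 0.39) without E4.5 replicate 3 and passed, with an adjusted p of 0.0103 from edgeR. With all libraries DESeq2 called Fgf9 (adjusted p = 0.0134) and limma on FPKM did not (adjusted p = 0.256), and without E4.5 replicate 3 both called it. Per 1000 FPKM of the epithelial markers of the same library, Fgf9 had 0.933, 2.75 and 1.66 FPKM at E0.5 against 22.2, 17.3 and 5.82 at E4.5. On this scale the days did not overlap, and E4.5 replicate 3 was the lowest of its day. Within the RefSeq gene Fgf9 on chromosome 14 lie 4 unannotated rows, and all 4 had negative log2 fold changes with a median of -1.31, of which 0 passed the adjusted p of edgeR with all libraries and 1 without E4.5 replicate 3, where 6.19% of all tested rows passed.

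Fgf7, a ligand made by stroma that acts on an epithelial form of Fgfr2, had 0.240, 0.589 and 0.192 FPKM at E0.5 against 0.617, 0.665 and 0.687 at E4.5. The days did not overlap, but 1 E0.5 library was close to E4.5, and the log2 fold change of -0.93 (SE 0.49) did not pass (edgeR adjusted p = 0.375), nor did the -0.92 without E4.5 replicate 3 (adjusted p = 0.385). It rested on few reads, from 55 in the shallowest case. Of 5 unannotated rows within the RefSeq gene Fgf7, which the table names Fam227b, 4 had a negative and 1 a positive log2 fold change, and none passed with or without that library. Fgf10, which acts on the same receptor form, had 1.34, 1.23 and 1.81 FPKM at E0.5 against 1.18, 2.60 and 0.792 at E4.5, with E0.5 inside the range of E4.5. For Fgf10 the log2 fold change was -0.05 (SE 0.45, edgeR adjusted p = 0.968), and -0.37 (adjusted p = 0.609) without E4.5 replicate 3.

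Fgf1, which can bind all FGF receptors, had 1.43, 0.971 and 1.76 FPKM at E0.5 against 1.42, 0.847 and 4.84 at E4.5. The highest value was that of E4.5 replicate 3, and the log2 fold change turned from -0.74 (SE 0.62) with this library to 0.26 (SE 0.35) without it. Neither passed, with adjusted p of 0.581 and 0.729 from edgeR. Fgf18 had the fewest reads of the ligands, with 0.560, 0.491 and 0.347 FPKM at E0.5 against 0.0896, 0.249 and 0.747 at E4.5, and from 10 to 73 reads per library. Its highest and lowest values were both at E4.5. For Fgf18 the log2 fold change was 0.40 (SE 0.77) and 1.41 (SE 0.76) without E4.5 replicate 3, with adjusted p of 0.825 and 0.348 from edgeR. Within the RefSeq gene Fgf18 lie 3 further rows, with 0 to 45 reads per library, and none passed the adjusted p of edgeR with or without that library.

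Fgf2, a growth factor stored in the matrix around cells, could be read only in a row that also holds the neighbouring gene Bbs12 and the noncoding gene Gm43439. This row had 1.98, 1.43 and 0.926 FPKM at E0.5 against 1.79, 1.26 and 2.0 at E4.5, and the days overlapped. Its log2 fold change was -0.22 (SE 0.32, edgeR adjusted p = 0.769), and -0.11 (adjusted p = 0.892) without E4.5 replicate 3. Of 9 unannotated rows within the RefSeq gene Fgf2, 6 had a positive and 3 a negative log2 fold change, and none passed the adjusted p of edgeR with or without E4.5 replicate 3.

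The receptor Fgfr1, which is expressed in stroma and muscle, was higher at E0.5 in every library. It had 7.75, 7.47 and 5.67 FPKM at E0.5 against 4.54, 4.45 and 3.89 at E4.5, and the days did not overlap. The log2 fold change was 0.70 with a standard error of 0.19. It did not pass edgeR's test (adjusted p = 0.132, unadjusted p = 0.00767), nor without E4.5 replicate 3 (0.61, SE 0.18, adjusted p = 0.103), while DESeq2 called it with an adjusted p of 0.0204. Leaving out E4.5 replicate 3 thus moved Fgfr1 by less than its standard error.

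Fgfr2, the receptor of Fgf7 and Fgf10 on epithelium, had its annotated transcripts only in a row on chromosome 7 that joins it with Ctbp2 and B930086L07Rik, chr7:130162451-133124354. The RefSeq gene Fgfr2 is only the stretch up to 130266808, so this row cannot be read as Fgfr2 alone. It had 9.74, 8.06 and 8.06 FPKM at E0.5 against 7.71, 8.60 and 5.46 at E4.5, which gave a log2 difference of 0.25 (SE 0.22, edgeR adjusted p = 0.60). The days overlapped, and without E4.5 replicate 3 the log2 fold change was 0.06. An unannotated row inside the RefSeq gene Fgfr2, on its strand, had 4.19, 3.58 and 2.24 FPKM at E0.5 against 1.97, 3.19 and 2.56 at E4.5. The days overlapped here too, with a log2 fold change of 0.39 (SE 0.29, edgeR adjusted p = 0.527) and of 0.36 (adjusted p = 0.573) without E4.5 replicate 3.

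Counted over the 10 rows, 0 passed the adjusted p of edgeR at the implantation stage, where 1.22% of all 59732 tested rows did. At an unadjusted p under 0.05 there were 3 (Hand2, Fgf9 and Fgfr1), against 17% of all tested rows. By the adjusted p limma on FPKM called 0 of the 10, where it called 1.51% of all rows, and DESeq2 called 3, where it called 9.74% of all rows. The study's own criterion, a log2 fold change of 1 or more in either direction and p below 0.05 before adjustment, was met by 2 of 10 rows, Hand2 and Fgf9, both lower at E0.5, against 12.2% of all tested rows. It was applied here to gene rows with edgeR's p, whereas the study's report on Hand2os1 concerns single transcripts. Without E4.5 replicate 3, 3 of 10 rows passed the adjusted p, Hand2, Hand2os1 and Fgf9, all lower at E0.5, where 6.19% of all tested rows passed. On the same 5 libraries DESeq2 called 4 of 10, where it called 14.3% of all rows, and limma 3 of 10, where it called 3.6%. In 2 of 10 rows, Fgf7 and Fgfr1, the days did not overlap in FPKM, while this held for 25.2% of all tested rows, so that non-overlap alone was near the background. The median log2 fold change of the 10 rows was -0.48, and that of all tested rows was -0.01.

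**Figure D3:**
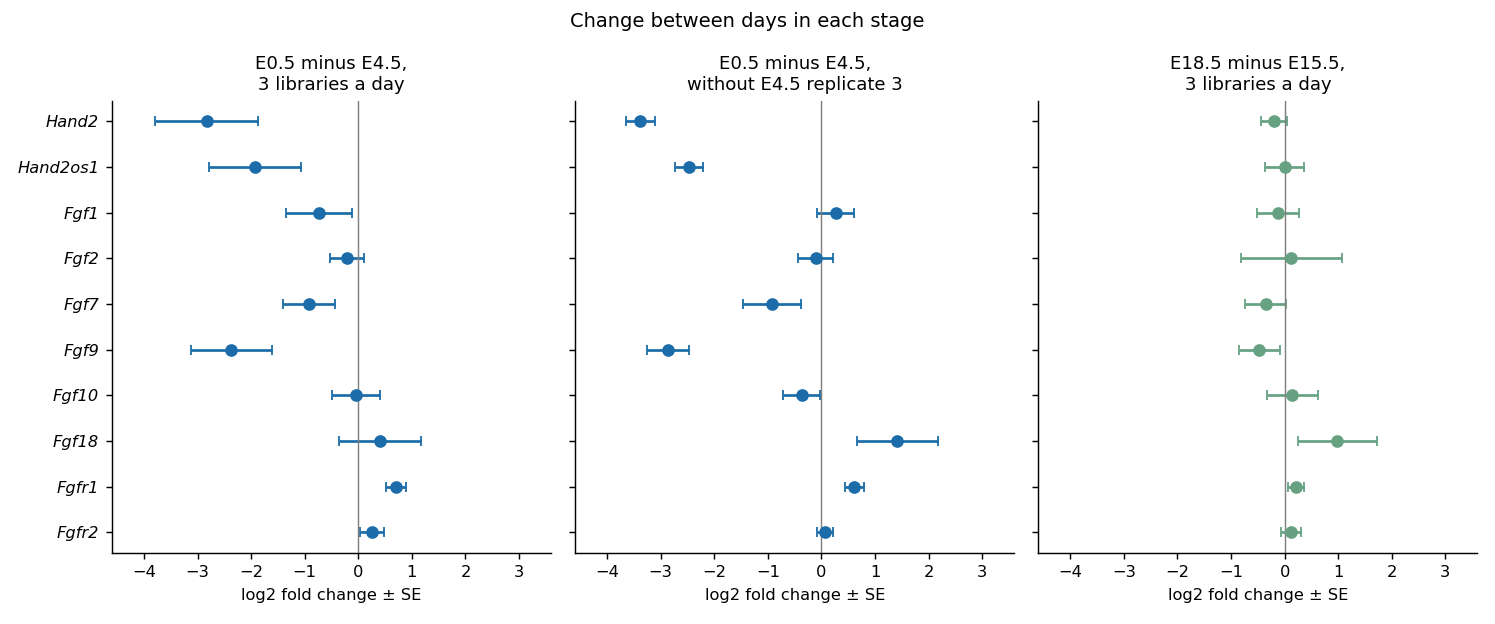
Log2 fold change with its standard error (x axis) of the 10 genes (y axis) at the implantation stage with all libraries, at the implantation stage without E4.5 replicate 3, and at the labor stage. The points of Hand2, Hand2os1 and Fgf9 lie at -2.83, -1.93 and -2.37 with wide bars on the left, at -3.38, -2.46 and -2.86 with shorter bars in the middle, and at -0.19, 0.00 and -0.47 on the right.

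In the labor stage, Hand2 overlapped between the days. It had 8.68, 4.69 and 4.97 FPKM at E15.5 against 5.45, 5.23 and 4.72 at E18.5. The one high value was that of E15.5 replicate 1, the library with high Prl8a2 and Erv3, and the other 5 values lay close together. The log2 fold change, E18.5 minus E15.5 on log2(FPKM + 0.1), was -0.19 (SE 0.24, limma adjusted p = 0.775), and without E15.5 replicate 1 it was 0.08. The Hand2os1 row had 3.11, 1.09 and 1.55 FPKM at E15.5 against 1.67, 1.63 and 1.97 at E18.5, also highest in E15.5 replicate 1. Its log2 fold change was 0.00 (SE 0.36, limma adjusted p = 0.998) and 0.40 (limma adjusted p = 0.591) without that library.

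None of the 6 ligands separated the days of the labor stage. Fgf7 had 3.25, 2.84 and 2.16 FPKM at E15.5 against 1.14, 2.27 and 3.53 at E18.5, so that both the lowest and the highest value were at E18.5. The Fgf2 row ranged from 0.459 to 8.56 FPKM within E15.5 alone and from 1.56 to 3.96 FPKM at E18.5. Fgf1 was between 0.814 and 2.19 FPKM in all 6 libraries. Fgf9 stayed between 0.0753 and 0.305 FPKM, with a log2 fold change of -0.47 (SE 0.39, limma adjusted p = 0.653), and Fgf10 between 0.140 and 0.543 FPKM. Fgf18 was listed at 0 in E15.5 replicate 1 and reached 0.863 FPKM in E18.5 replicate 1, and its log2 fold change was 0.98 (SE 0.73, limma adjusted p = 0.626). Rare transcripts such as Fgf9, Fgf10 and Fgf18 are not well resolved on this scale, and their depth is unknown because the table has no counts.

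Fgfr1 had 6.56, 5.92 and 5.44 FPKM at E15.5 against 7.86, 6.76 and 6.21 at E18.5. The E18.5 values overlapped with E15.5, and the log2 fold change was 0.21 (SE 0.14, limma adjusted p = 0.593). The row of Fgfr2 with Ctbp2 had 5.46, 7.85 and 7.61 FPKM at E15.5 against 7.75, 8.34 and 6.40 at E18.5, which gave a log2 difference of 0.11 (SE 0.19). A second row that names Fgfr2 beside 2310057M21Rik, with 1.26 to 1.40 FPKM in the 6 libraries, shares 0 transcripts with the Fgfr2 row of the implantation stage. Of the 11 rows tested at the labor stage, 0 passed the adjusted p of limma, where 0.0259% of 30928 rows did, 0 were under an unadjusted p of 0.05, where 12.2% were, and 0 met the study's criterion, where 6.05% did. In 0 of 11 rows the days did not overlap, against 19.9% of all tested rows.

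The change at the implantation stage was set against that at the labor stage in a single limma fit over the 12 libraries, for the 9 genes whose rows share transcripts one to one. The contrast is the log2 fold change of E0.5 against E4.5 minus that of E18.5 against E15.5. None of the 9 passed the adjusted p, where 2.69% of 20777 rows did, and 0 were under an unadjusted p of 0.05, where 18.2% were. For Hand2 the difference was -1.77 (SE 1.21, limma adjusted p = 0.483). Without E4.5 replicate 3, 3 of 9 passed, where 5.77% of all rows did. These were Hand2 with -3.15 (limma adjusted p = 0.00163), Hand2os1 with -2.38 (adjusted p = 0.0208) and Fgf9 with -2.25 (adjusted p = 0.0372). Fgfr2 was not compared, since its rows do not match one to one.

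By level per length, the receptors led at E0.5, with means of 8.62 ± 0.969 FPKM (SD, n = 3) for the Fgfr2 row and 6.96 ± 1.13 FPKM (SD, n = 3) for Fgfr1. Hand2 followed with 2.07 ± 0.596 FPKM (SD, n = 3). Hand2os1, Fgf10, Fgf2 and Fgf1 lay between 1.39 and 1.58 FPKM on average, closer to each other than their spread, and Fgf9, Fgf18 and Fgf7 lay between 0.340 and 0.534 FPKM. At E4.5 the mean of Hand2 was the highest, 14.6 ± 11.7 FPKM (SD, n = 3), but its spread covered that of the Fgfr2 row, 7.26 ± 1.62 FPKM (SD, n = 3), and of Hand2os1, 5.99 ± 4.87 FPKM (SD, n = 3). This rests on E4.5 replicate 3, since without it Hand2 had 21.3 ± 1.02 FPKM (SD, n = 2), the Fgfr2 row 8.15 ± 0.635 FPKM (SD, n = 2) and Hand2os1 8.66 ± 2.19 FPKM (SD, n = 2). At E15.5 the Fgfr2 row, Hand2 and Fgfr1 had means of 6.97, 6.11 and 5.98 FPKM and did not differ beyond their spread. Fgf7 was then the leading ligand that could be read alone, with 2.75 ± 0.549 FPKM (SD, n = 3), above Fgf1 with 1.5 ± 0.626 FPKM (SD, n = 3), and Fgf18 was the lowest at 0.138 FPKM.

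The other genes of the pathway were read from 7 lists of 90 genes: further FGF ligands, further receptors and coreceptors, carriers and heparan sulfate genes, signal transducers, feedback inhibitors and transcription targets of ERK, and stromal regulators around Hand2. At the implantation stage 76 of the 90 genes were tested. A single gene, Bmp2, passed the adjusted p of edgeR, which is near the 1.22% of all tested rows. By the study's criterion 2 genes were higher and 10 lower at E0.5, together 12 of 76 where 12.2% of all rows were called. Of these 12, Fgf20, Fgfr4 and Hs6st2 had a mean under the minimum of 0.1 FPKM for testing on 1 of the days and entered the test only through the day on which they were high. Without E4.5 replicate 3, 2 were higher and 8 lower at E0.5 by the adjusted p, 10 of 76 where 6.19% of all rows were called. This count includes Fgf20 as well, so that both counts are descriptions of the lists.

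Bmp2, a morphogen that stromal cells need to become decidua, had 0.484, 0.521 and 0.580 FPKM at E0.5 against 8.25, 4.92 and 3.97 at E4.5. All E4.5 libraries were far above E0.5, including E4.5 replicate 3. The log2 fold change was -3.44 (SE 0.36, edgeR adjusted p = 0.0187) and -3.66 without that library (adjusted p = 0.00185). The call was lost when any of the E0.5 replicates 1, 2 or 3 was left out, with adjusted p of 0.109, 0.126 and 0.0970 from edgeR, while the log2 fold change stayed between -3.51 and -3.36. Osr2, a stromal zinc finger factor, had 2.63, 5.0 and 4.68 FPKM at E0.5 against 14.3, 16.8 and 5.59 at E4.5, and its days did not overlap. Its log2 fold change was -1.57 with all libraries (edgeR adjusted p = 0.160) and -1.92 without E4.5 replicate 3 (adjusted p = 0.0138).

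In the same list of stromal regulators, 1 of 13 tested genes, Bmp2, was lower at E0.5 by the adjusted p with all libraries (1.22% of all rows were called) and 4 were without E4.5 replicate 3 (6.19% of all rows were called). Besides Bmp2 and Osr2 these were Tcf4, a partner protein of helix-loop-helix factors such as Hand2, and the row that joins Hoxa10, a homeobox gene of the receptive uterus, with Hoxa9 and Mir196b. Tcf4 had 5.10, 5.31 and 5.79 FPKM at E0.5 against 9.82, 10.6 and 5.13 at E4.5, with log2 fold changes of -0.65 (edgeR adjusted p = 0.327) and, without E4.5 replicate 3, -0.93 (adjusted p = 0.0136). The Hoxa10 row had 6.71, 8.51 and 9.77 FPKM at E0.5 against 22.2, 26.4 and 1.83 at E4.5, again with E4.5 replicate 3 lowest. Its log2 fold changes were -1.02 (edgeR adjusted p = 0.564) and, without that library, -1.55 (adjusted p = 0.00802). Pgr, the progesterone receptor, had 3.45, 4.34 and 6.58 FPKM at E0.5 against 8.86, 9.52 and 1.31 at E4.5 and did not pass with all libraries (log2 fold change -0.46, edgeR adjusted p = 0.770) or without that library (-0.95, adjusted p = 0.10).

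Of the transcription targets of ERK, 0 of 6 tested genes passed the adjusted p of edgeR with all libraries, where 1.22% of all rows were called. Without E4.5 replicate 3, 2 were lower at E0.5, where 6.19% of all rows were called. Myc, a growth regulator, had 2.89, 2.63 and 3.37 FPKM at E0.5 against 14.1, 14.2 and 3.46 at E4.5, which gave a log2 difference of -1.84 (edgeR adjusted p = 0.152) and -2.27 (adjusted p = 0.00194) without E4.5 replicate 3. Ccnd1, a cyclin of the first phase of the cell cycle, had 4.97, 4.21 and 2.78 FPKM at E0.5 against 14.1, 9.61 and 3.61 at E4.5, with log2 fold changes of -1.21 (edgeR adjusted p = 0.294) and, without that library, -1.60 (adjusted p = 0.0232). Of the feedback inhibitors, 0 of 11 tested genes passed with all libraries (1.22% of all rows were called). Without E4.5 replicate 3, 1 was lower and 1 higher at E0.5, where 6.19% of all rows were called.

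Spry4, an inhibitor of receptor tyrosine kinase signaling, had 1.75, 1.64 and 1.12 FPKM at E0.5 against 4.40, 2.83 and 2.76 at E4.5 with no overlap (log2 fold change -1.15, edgeR adjusted p = 0.130, and -1.29, adjusted p = 0.0494 without E4.5 replicate 3). Dusp4, a phosphatase of ERK, went the other way, with 9.41, 5.59 and 3.33 FPKM at E0.5 against 1.67, 1.44 and 0.828 at E4.5. Its log2 fold change was 2.21 (edgeR adjusted p = 0.0772), and without E4.5 replicate 3 it was 1.95 with an adjusted p of 0.0468. Of the 15 signal transducers, 0 passed the adjusted p of edgeR or the study's criterion with or without that library. Of all tested rows 1.22% passed the adjusted p and 12.2% met the criterion with all libraries, and 6.19% passed the adjusted p without that library.

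**Figure D4:**
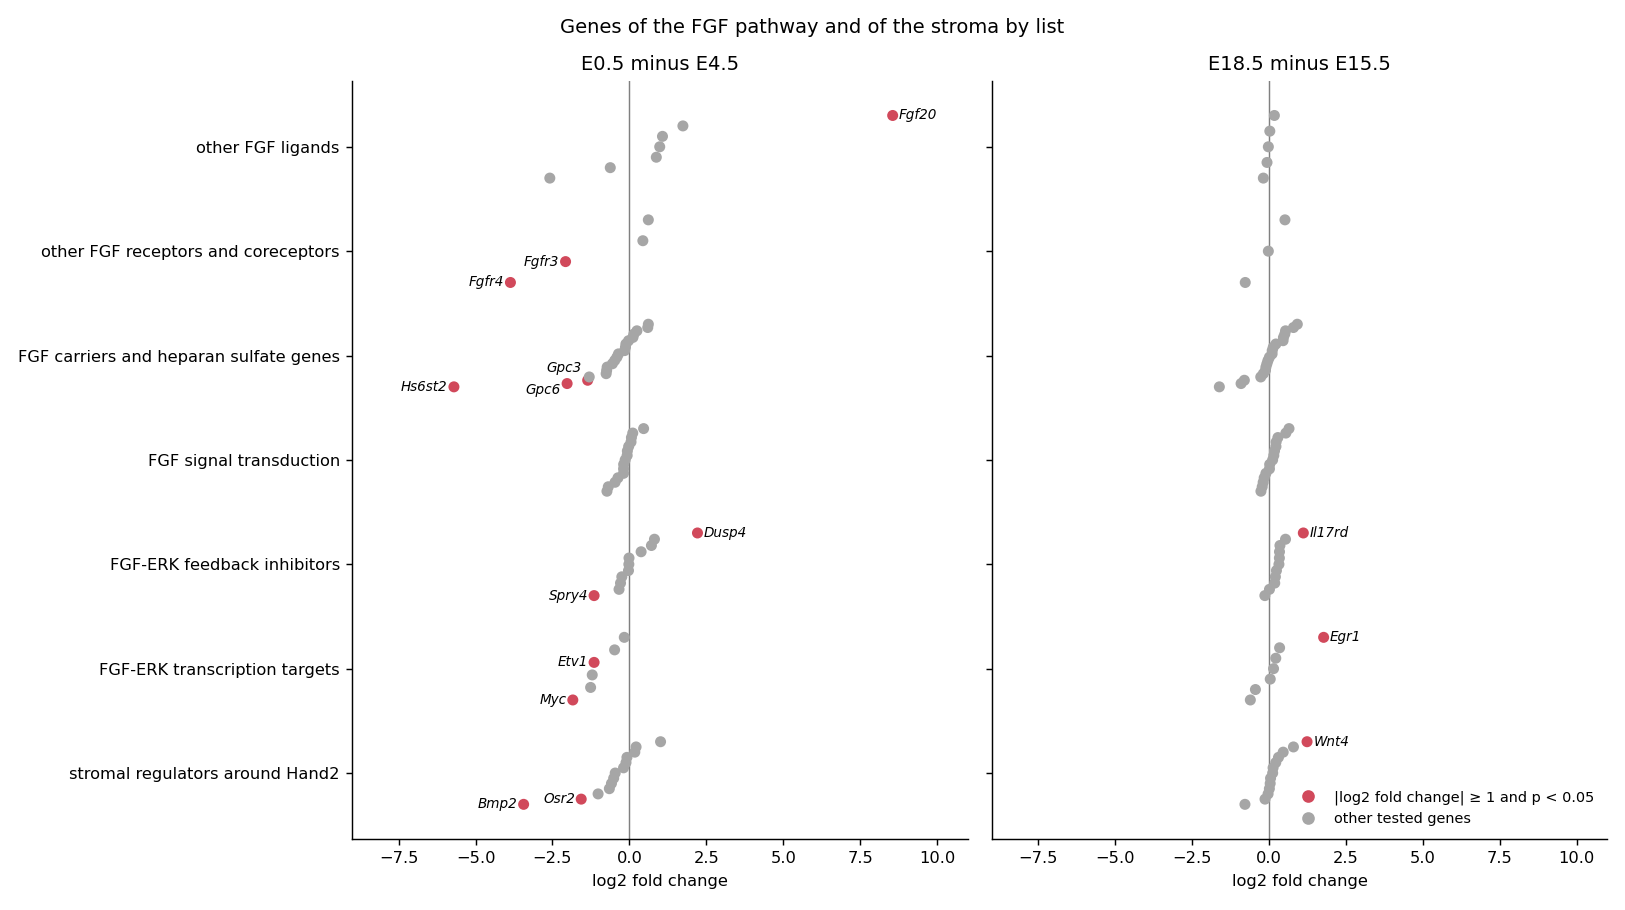
Log2 fold change (x axis) of each tested gene of the 7 lists (y axis) at the implantation stage (left, 76 genes) and at the labor stage (right, 74 genes). Red points with names are genes that met the study's criterion, 12 on the left and 3 on the right, and the spread of points within a list carries no meaning. The point of Fgf20 comes from a gene with 0 reads at E4.5, so its place on the axis is set by the fit and is no bound.

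Of 20 tested carriers and heparan sulfate genes, which hold FGF ligands at the cell surface and in the matrix, 1 passed without E4.5 replicate 3, a share no higher than the 6.19% of all rows, and 0 with all libraries. The gene was Gpc6, a glypican, with 0.854, 0.814 and 0.961 FPKM at E0.5 against 5.22, 4.53 and 0.868 at E4.5 (log2 fold change -2.02, edgeR adjusted p = 0.171, and -2.49, adjusted p = 0.00136 without E4.5 replicate 3). Gpc3, another glypican, had 1.67, 1.09 and 1.48 FPKM at E0.5 against 1.93, 2.79 and 6.38 at E4.5, and here E4.5 replicate 3 was the highest library. It met the study's criterion with a log2 fold change of -1.36, which was -0.75 (edgeR adjusted p = 0.182) without that library.

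The remaining genes that met the criterion at the implantation stage had means under 1 FPKM and are named after their values were seen. The receptors Fgfr3 and Fgfr4 were highest in E4.5 replicate 3, at 1.65 and 2.88 FPKM, against at most 0.764 and 0.399 FPKM in the other 5 libraries. The sulfotransferase Hs6st2 had 2.69 FPKM in that library and at most 0.213 FPKM in the others. Etv1, a transcription factor induced by ERK, was between 0.0914 and 0.384 FPKM. Fgfr3 and Etv1 did not pass the adjusted p of edgeR with or without E4.5 replicate 3. No p is given for Fgfr4 and Hs6st2, which had a mean under 0.1 FPKM at E0.5. The ligand Fgf20 had 32, 23 and 88 reads at E0.5 and 0 reads in each E4.5 library, and against a floor of 3 reads per library its E0.5 level was higher by at least 15.6-fold, or by at least 9.53-fold without E0.5 replicate 3, the library with 88 reads. Its mean over the 6 libraries, 0.167 FPKM, was above the minimum of 0.1 FPKM for testing only through E0.5, and no p is given for it either.

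At the labor stage 74 of the 90 genes were tested and 0 passed the adjusted p of limma, where 0.0259% of all rows did. There were 14 at an unadjusted p under 0.05, where 12.2% of all rows were, and 3 of 74 met the study's criterion, all higher at E18.5, a smaller share than the 6.05% of all rows. Egr1, an immediate early gene downstream of ERK, had 0.368, 0.512 and 1.06 FPKM at E15.5 against 1.61, 3.38 and 2.16 at E18.5 (log2 fold change 1.78, SE 0.41, limma adjusted p = 0.182). Wnt4, a Wnt ligand of the decidua, had 1.01, 0.686 and 0.683 FPKM at E15.5 against 2.52, 1.75 and 1.75 at E18.5 (log2 fold change 1.24, SE 0.25, limma adjusted p = 0.149). Il17rd, an inhibitor of FGF receptor signaling, had 0.379, 0.630 and 1.57 FPKM at E15.5 against 1.76, 1.82 and 1.58 at E18.5 (log2 fold change 1.12, SE 0.44, limma adjusted p = 0.384). In each of these 3 genes the days did not overlap, as in 19.9% of all tested rows, and in Il17rd the gap between them was narrow. Sums of 4 marker lists did not overlap between E15.5 and E18.5. The 9 epithelial markers were higher at E18.5, with sums of 206, 315 and 445 FPKM at E15.5 against 887, 644 and 661 at E18.5, positive log2 fold changes in 9 of 9 and a median of 1.0. The trophoblast markers summed to 36.1, 6.47 and 10.3 FPKM at E15.5 against 64.4, 82.4 and 49.1 at E18.5, the endothelial markers to 150.2, 173.7 and 143 against 73.0, 83.8 and 101, and the decidual markers to 1565, 173.7 and 176 against 149, 142 and 162. Of 7 tested decidual markers 4 had positive log2 fold changes, with a median of 0.016, and Wnt4 is itself on this list. Prl8a2 (means of 500 FPKM at E15.5 and 48.9 at E18.5) and Erv3 (84.4 and 25.4) carried the lower sum, while Cryab rose (22.4 and 49.0). The part of these lists in the values of the 3 genes was not tested.

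The protein-coding genes with values most like those of Hand2 over the 12 libraries were found by the root mean square difference of log2(FPKM + 0.1), centred within each stage, over 10078 genes with at least 1 FPKM on average in both tables. The nearest 5 were Prdm1 with a difference of 0.345, Jazf1 with 0.368, Igfbp3 with 0.444, Guca2b with 0.465 and Gpc6 with 0.491, while the median over all genes was 1.26. They were picked for this likeness, so their values are a description. Igfbp3, a binding protein of insulin-like growth factors, had 34.1, 28.0 and 24.9 FPKM at E0.5 against 331, 222 and 35.5 at E4.5. Prdm1, a transcriptional repressor, had 1.75, 1.02 and 2.03 FPKM at E0.5 against 9.17, 10.2 and 0.964 at E4.5. Guca2b, a peptide that activates guanylate cyclase, had 1.60, 1.85 and 2.30 FPKM at E0.5 against 42.5, 23.8 and 2.40 at E4.5. In all 5 genes E4.5 replicate 3 was far below both other E4.5 libraries.

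**Figure D5:**
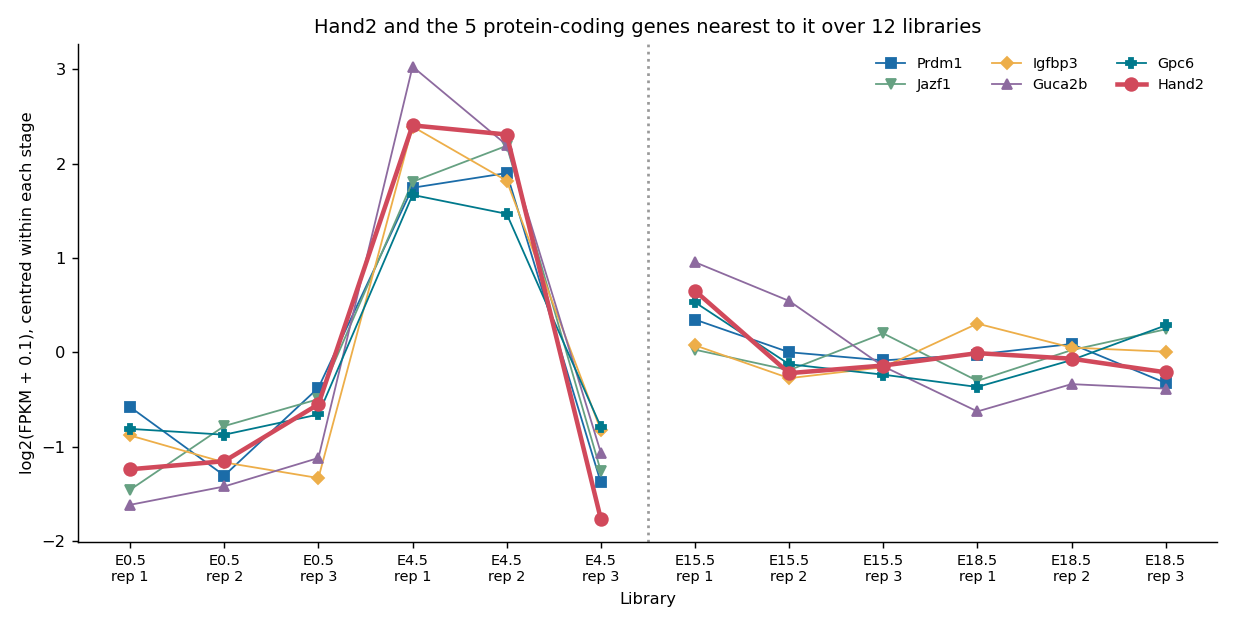
Log2(FPKM + 0.1) centred within each stage (y axis) of Hand2 and the 5 genes nearest to it, in each of 12 libraries (x axis), where lines join libraries only to guide the eye. All 6 genes are high in E4.5 replicates 1 and 2 and low in the E0.5 libraries and in E4.5 replicate 3, and all vary less at the labor stage.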

How the data were processed

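Total RNA of 12 whole uteri was sequenced in pairs of reads. Per the labels, poly(A) RNA was selected, while the methods of the study name ribosomal RNA removal, and strandedness is not given in the sources used here. The submitters' processing notes list HISAT2 2.0, StringTie 1.3.0 and Bowtie 0.12.2 with builds mm8 and mm10, and the study names Cutadapt, Bowtie2, Tophat2, StringTie and Ballgown. The FPKM values were made and deposited by the authors as 1 table per stage. Read counts were deposited by the authors for the implantation stage only, and how reads were assigned to genes is not given in the sources used here. A value of 0.0001 FPKM stands for 0 in that table and was set back to 0. Positions are those of the table and match RefSeq genes of GRCm38. Of the counts, 1.02% to 1.86% fell in rows that name no gene, which are assembled transcripts with a position and were tested.

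Tests covered rows that reached 0.1 FPKM on average over the 6 libraries of a stage, with edgeR 4.0.16 on counts (TMM factors, quasi-likelihood test) for the implantation stage and limma 3.58.1 (trend) on log2(FPKM + 0.1) for the labor stage and for the difference between the stages, which understates changes of low genes. The standard error of an edgeR fold change was taken from its F statistic. P-values were adjusted by Benjamini-Hochberg over all tested rows. R 4.3.3, DESeq2 1.42.0, Python 3.11.15, pandas 2.3.3, NumPy 2.4.6 and SciPy 1.17.1 were used, and the tests were tried on simulated data. The labels put 3 mice in each group. The genes, lists and alternatives were chosen with earlier results of these data known. Named genes were all members, up to 6 called genes per list and stage with at least 1 FPKM on average, up to 3 neighbours of Hand2 per side, and the 5 genes nearest to Hand2. Alternatives were other tools, scalings, pseudocounts and filters, leaving out each library, and a replicate block.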

Additional observations from a re-analysis of the deposited data

How the results depend on the processing

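At the implantation stage the count of the 10 genes past the adjusted p was 0 with all libraries, 0 to 3 with 1 library left out (3 without E4.5 replicate 3) and 3 with DESeq2. Without E4.5 replicate 3, which was combined with other tools after seeing the data, DESeq2 gave 4 (14.3% of all rows) and limma 3 (3.6%). The count by the study's criterion, 2, was 1 with limma on FPKM, 0 with the replicate block and 0 to 3 with 1 library left out. The pathway count, 1 by the adjusted p, was 12 of 76 with DESeq2 (9.74% of all rows), 0 with the replicate block and 0 to 10 with 1 library left out. Without E4.5 replicate 3 it was 22 with DESeq2 and 6 with limma, where 14.3% and 3.6% of all rows were called. By the criterion it was 12, and 7 among genes of at least 1 FPKM, where fewer genes are tested. Hand2 stayed negative in all 15 alternatives, from -3.38 to -1.96 over all of them and from -3.38 to -2.34 with 1 library left out. It passed with DESeq2 (-2.82), and without E4.5 replicate 3 also with DESeq2 (-3.37) and limma (-3.34). At the labor stage the pathway count by the criterion, 3, was 1 with a pseudocount of 1 and up to 5 with 1 library left out, and no alternative called a member. The difference between the stages called 0 to 3 of 9 genes with 1 library left out, and for Hand2 it lay between -3.15 and -1.06. Scaling to the 75th percentile shifted the median of all genes by 0.14 in that contrast.

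Directions turned only for values that passed no test. E0.5 minus E4.5 for Fgf1 turned to 0.27 with DESeq2 or limma without E4.5 replicate 3, and for Fgf10 to 0.081 with limma, 0.021 with upper quartile factors and 0.10 with the replicate block. With 1 library left out it ranged from -1.14 to 0.26 for Fgf1, -0.50 to 0.0095 for Fgf2, -0.37 to 0.54 for Fgf10 and -0.054 to 1.41 for Fgf18. E18.5 minus E15.5 for Hand2os1 became -0.024 with a pseudocount of 1, -0.058 with 75th percentile scaling and -0.044 with quantile normalization, and for Fgf2 -0.070 with a pseudocount of 1. With 1 library left out it ranged from -0.35 to 0.084 for Hand2, -0.32 to 0.40 for Hand2os1, -0.40 to 0.20 for Fgf1, -0.95 to 1.03 for Fgf2, -0.72 to 0.059 for Fgf7, -0.28 to 0.43 for Fgf10 and -0.052 to 0.22 for Fgfr2. The difference between the stages for Fgf10 became 0.062 with 75th percentile scaling. With 1 library left out it ranged from -0.80 to 0.39 for Fgf1, -1.27 to 0.70 for Fgf2, -0.42 to 0.38 for Fgf10 and -0.99 to 0.18 for Fgf18. The replicate numbers do not pair the mice, as same-numbered libraries did not deviate together (correlations of -0.063 to 0.018), and the replicate block left 0 calls among all rows of the implantation stage.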
